A study of Mus musculus and Rattus norvegicus with 6 samples.

Results

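The 10 genes described here encode transcription factors and a phosphatase that cells switch on within minutes of a stimulus, together with small growth regulators of the same kind: Egr1, Fos, Jun, Junb, Myc, Atf3, Dusp1, Btg2, Ier2 and Ier3. They were taken by symbol, with every probe set annotated to them. On the mouse array all 10 were found, on 12 of 45037 probe sets, and on the rat array 9 were found, on 13 of 31042 probe sets; no rat probe set was annotated to Btg2 alone. The 10 genes stand among 18193 named genes in mice and the 9 among 14217 in rats. Livers of male animals aged 20 weeks were sampled 6 h after an intraperitoneal injection, a time the design text gives as preceding any change in feeding or weight. The mouse groups were Lepob/Lepob mice given recombinant murine leptin (1 microg/mg, as the design text writes it), Lepob/Lepob mice given saline, and WT littermates given saline, all on the C57/BL6J background. The rat groups were Lepmkyo/Lepmkyo rats given the same leptin, Lepmkyo/Lepmkyo rats given saline, and WT littermates given saline, all on the F344/NSlc background. Each group was 1 array, and the labels do not say whether an array held RNA of 1 animal or of a pool. Both mutant groups of a species lack functional leptin from birth, and leptin-injected WT animals were not analysed here. The labels name the rat mutant in more than 1 way (Lepmkyo, Lepmyo and, in the source field, Lepob); Lepmkyo follows the design text.

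Immediate early genes are transcribed from factors already present in the cell, without new protein synthesis, when growth factors, hormones, cytokines or stress activate MAP kinase, cAMP or STAT signalling. Their transcripts are short-lived, so their level in a tissue falls soon after the stimulus ends. In liver they are best known from regeneration after partial hepatectomy and from the response to feeding, injury and handling. Leptin acts through its receptor and STAT3, with MAP kinase as a further branch, and Fos and Egr1 are classical readouts of that branch in cultured cells and hypothalamus.

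With 1 array per group no spread between animals can be measured, so no test is given, and a gene called higher or lower is so between 2 arrays only. Values are linear MAS5 signal intensities as deposited, with arrays scaled to trimmed means of 496.0 to 496.9. Without detection calls, the median over a platform's 3 arrays served as a floor, 82.7 for the mouse array and 97.0 for the rat array; lower values were raised to it before a ratio was taken, and such a ratio is a bound. The brightest probe set stood for a gene, and a gene was counted at 2-fold. Probe sets of the same gene differed in their log2 ratio with an SD of 0.24 in both leptin comparisons and 0.42 to 0.44 in the others, a technical spread that holds nothing of the variation between animals. All 4 hepatocyte markers (Alb, Apoa1, Ttr, Hnf4a) were above the floor on every array. In bulk liver, fewer cells of a type and less RNA per cell cannot be told apart. Scaling arrays to equal medians shifted the median of all genes by up to 0.24 on the log2 scale in the mouse comparisons with WT, and the split of all genes at 2-fold in the mouse genotype comparison, 533 higher and 443 lower, became 962 and 235 with it and 663 and 352 with quantile normalization. The same scaling gave 767 higher and 235 lower for leptin-injected mutant against WT mice, in place of 476 and 414, and 29 higher and 20 lower for leptin in rats, in place of 23 and 27.

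Leptin-injected Lepob/Lepob liver had lower signals than saline-injected Lepob/Lepob liver for 9 of the 10 genes. Dusp1, the phosphatase that switches off MAP kinases, was 2.31-fold lower and Junb, a FOS partner in the AP-1 dimer, 2.23-fold lower. These 2 of 10 genes passed 2-fold, against 0.243% of the 11536 genes measured, and 0 of 10 were 2-fold higher, against 0.182%. Fos was 1.91-fold, Btg2 1.76-fold, Myc 1.68-fold and Egr1 1.66-fold lower. At 1.5-fold, a threshold chosen after the values were seen, 6 of 10 were lower, against 2.21% of all genes. The median log2 ratio of the 10 genes was -0.74 and that of all genes -0.002. Among the 10580 genes above the floor on both arrays, Dusp1 had rank 5 from the lowest ratio, Junb rank 7 and Fos rank 24. The call of Junb was lost, at -0.75, when the platform median was added to each signal in place of a floor, and Junb was not measured with the floor at the 75th percentile.

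The promoters of Dusp1, Junb, Fos and Btg2, which had the lowest mouse ratios after leptin by the brightest probe set, are shown. The second Btg2 probe set did not move, with a log2 ratio of 0.03. That of Jun, whose signal differed by 1.07-fold, is given for comparison. They come from RefSeq (GRCm38.p6), 250 bases before to 50 after the annotated start, 5′ to 3′ on the gene's strand; 7 of the 10 genes matched, and Egr1, Myc and Ier2 did not. Capitals mark TGACG on either strand, the core of the cAMP response element, and the whole element TGACGTCA where 2 such cores overlap.
Dusp1 (chr17:26508423-26508722, minus strand): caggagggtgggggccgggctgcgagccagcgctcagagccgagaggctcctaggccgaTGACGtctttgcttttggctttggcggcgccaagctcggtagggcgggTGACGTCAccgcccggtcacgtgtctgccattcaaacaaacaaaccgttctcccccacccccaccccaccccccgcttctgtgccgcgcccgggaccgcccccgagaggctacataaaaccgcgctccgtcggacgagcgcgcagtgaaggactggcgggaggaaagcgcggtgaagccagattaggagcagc
Junb (chr8:84978699-84978998, minus strand): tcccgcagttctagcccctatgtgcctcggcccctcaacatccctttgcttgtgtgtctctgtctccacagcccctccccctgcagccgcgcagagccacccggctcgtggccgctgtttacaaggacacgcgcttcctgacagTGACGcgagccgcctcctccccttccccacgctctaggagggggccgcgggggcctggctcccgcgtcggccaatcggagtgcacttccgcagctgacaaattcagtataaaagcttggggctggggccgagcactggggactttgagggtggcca
Fos (chr12:85473640-85473939, plus strand): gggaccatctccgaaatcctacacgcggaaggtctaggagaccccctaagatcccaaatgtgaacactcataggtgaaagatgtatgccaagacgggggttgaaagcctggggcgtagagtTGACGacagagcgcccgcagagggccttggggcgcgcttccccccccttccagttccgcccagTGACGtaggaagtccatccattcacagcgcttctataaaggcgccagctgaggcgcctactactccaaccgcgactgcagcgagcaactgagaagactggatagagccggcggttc
Btg2 (chr1:134079106-134079405, minus strand): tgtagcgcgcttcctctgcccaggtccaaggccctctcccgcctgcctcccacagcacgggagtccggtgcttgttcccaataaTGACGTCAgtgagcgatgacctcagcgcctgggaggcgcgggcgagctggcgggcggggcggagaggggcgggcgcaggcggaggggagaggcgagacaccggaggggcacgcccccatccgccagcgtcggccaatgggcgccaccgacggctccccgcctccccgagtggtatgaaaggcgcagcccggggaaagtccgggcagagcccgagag
Jun (chr4:95052173-95052472, minus strand): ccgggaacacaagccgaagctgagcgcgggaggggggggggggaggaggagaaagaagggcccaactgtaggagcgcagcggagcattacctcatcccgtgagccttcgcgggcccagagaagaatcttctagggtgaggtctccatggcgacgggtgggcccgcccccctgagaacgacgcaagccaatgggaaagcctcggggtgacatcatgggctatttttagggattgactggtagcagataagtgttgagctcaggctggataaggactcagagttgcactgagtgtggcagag

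The core TGACG was in the windows of Dusp1, Junb, Fos, Btg2 and Atf3, 5 of the 7 windows, and not in those of Jun and Ier3. Only exact matches were counted, and variants were not searched in any window. The Jun window holds tgacatca, which differs from the whole element TGACGTCA only by A in place of G. Atf3, with the core, had a mouse leptin log2 ratio of -0.21. Jun and Ier3, without it, had 0.095 and -0.19. A link between the core and the ratios was not tested. Over all 32851 windows of 27025 genes in the table, 20.8% held it. In the Dusp1 window 1 core lay 191 bases before the start, in that of Junb 106 and in that of Atf3 7. The whole element TGACGTCA was in the windows of Dusp1 and Btg2, 143 and 166 bases before the start, and in 1.79% of all windows. In the Fos window the cores lay 129 and 66 bases before the start, and TATAAA, searched on both strands, was found 33 bases before it. Across all windows TATAAA was in 13.6%, and among the 7 in those of Fos and Junb. In the Junb window it lay 0 bases from the annotated start, and all these distances depend on where the start is annotated. The STAT palindrome TTCNNNGAA was in 0 of the 7 windows and 8.3% of all, and the CArG box, the site of serum response factor, in 0 of the 7 and 1.63% of all. Sites more than 250 bases before the start were not searched, and Egr1, Myc and Ier2 had no window. A count of 0 thus holds for these short windows only, and does not show that a gene lacks the site. These are matches of letters, counted on both strands with overlaps allowed, and the motifs were chosen with the values known.

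**Figure D1:**
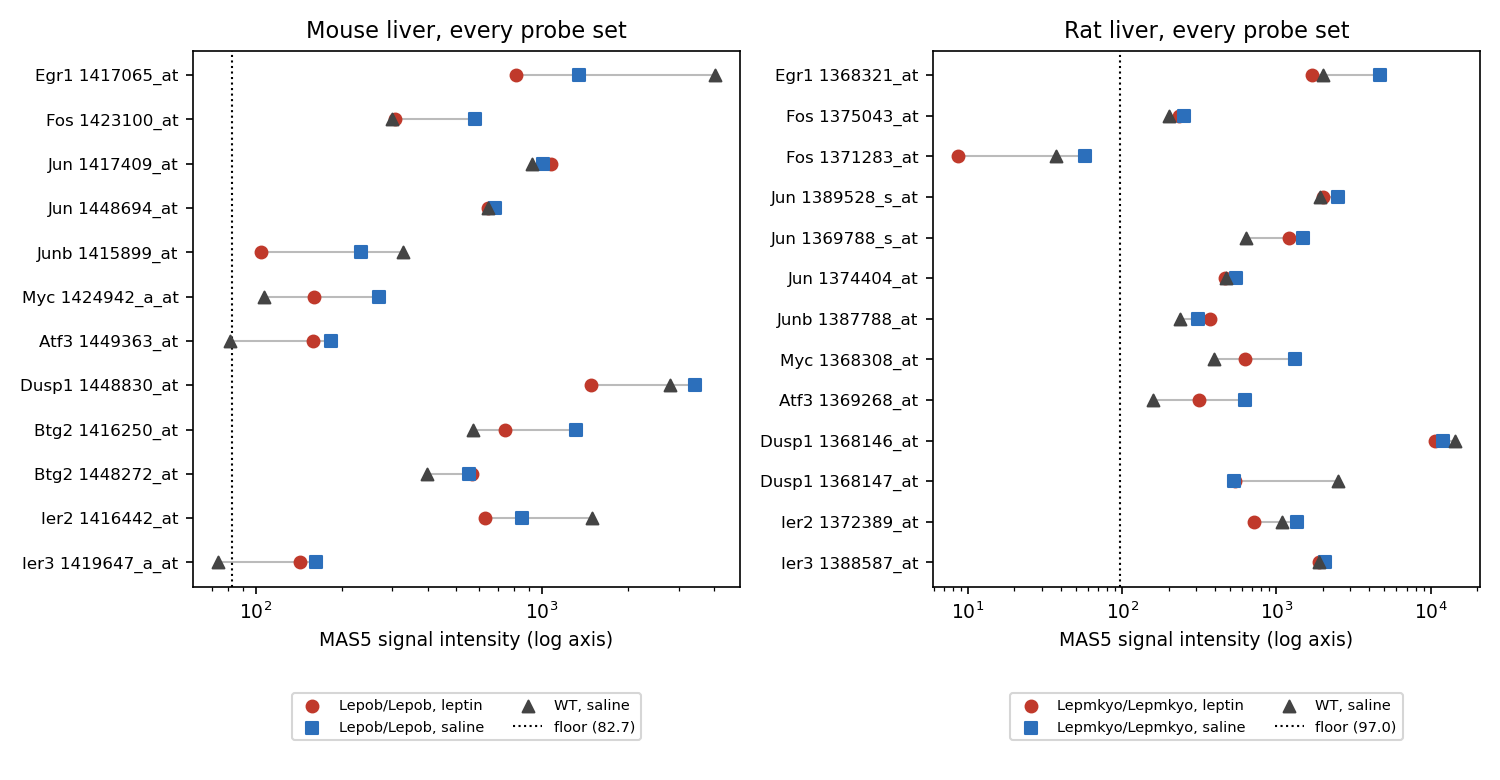
MAS5 signal intensity (horizontal, log axis) of every probe set of the 10 genes, mouse at left and rat at right, 1 point per array: leptin-injected mutant, saline-injected mutant and WT; the dotted line is the floor of 82.7 in mice and 97.0 in rats. In mice the leptin-injected array is the lowest of the 3 for Egr1, Junb, Dusp1 and Ier2, and in rats the saline-injected mutant array is the highest of the 3 for Egr1, Fos, Jun, Myc, Atf3, Ier2 and Ier3, by the brightest probe set.

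In rats, 8 of 9 genes had lower signals in leptin-injected than in saline-injected Lepmkyo/Lepmkyo liver. Egr1, a zinc finger transcription factor, was 2.75-fold lower, Myc, which drives growth and ribosome synthesis, 2.11-fold lower, and Atf3, a stress-induced repressor, 2.01-fold lower. These 3 of 9 compare with 0.278% of the 9705 genes measured, and 0 of 9 were 2-fold higher, against 0.237%. Ier2 was 1.89-fold lower, so that 4 of 9 were lower at 1.5-fold, against 2.59% of all genes. The median log2 ratio of the 9 genes was -0.33 and that of all genes 0.01. Of the 9110 genes above the floor on both arrays, Egr1 had rank 4 from the lowest, Myc rank 15 and Atf3 rank 21. Atf3 lay at the threshold and stayed past 2-fold in 3 of 7 alternative settings, Myc in 6 of 7 and Egr1 in 7 of 7.

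The mouse and rat leptin comparisons share no array. Of the 9 genes measured in both, 7 were below 0 in both species, 0 above 0 in both, and Jun and Junb had opposite signs. Over the 8213 genes measured in both species, 53.9% had the same sign. Of the 9 genes, 0 were 2-fold lower in both species, as were 0 of all 8213.

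**Figure D2:**
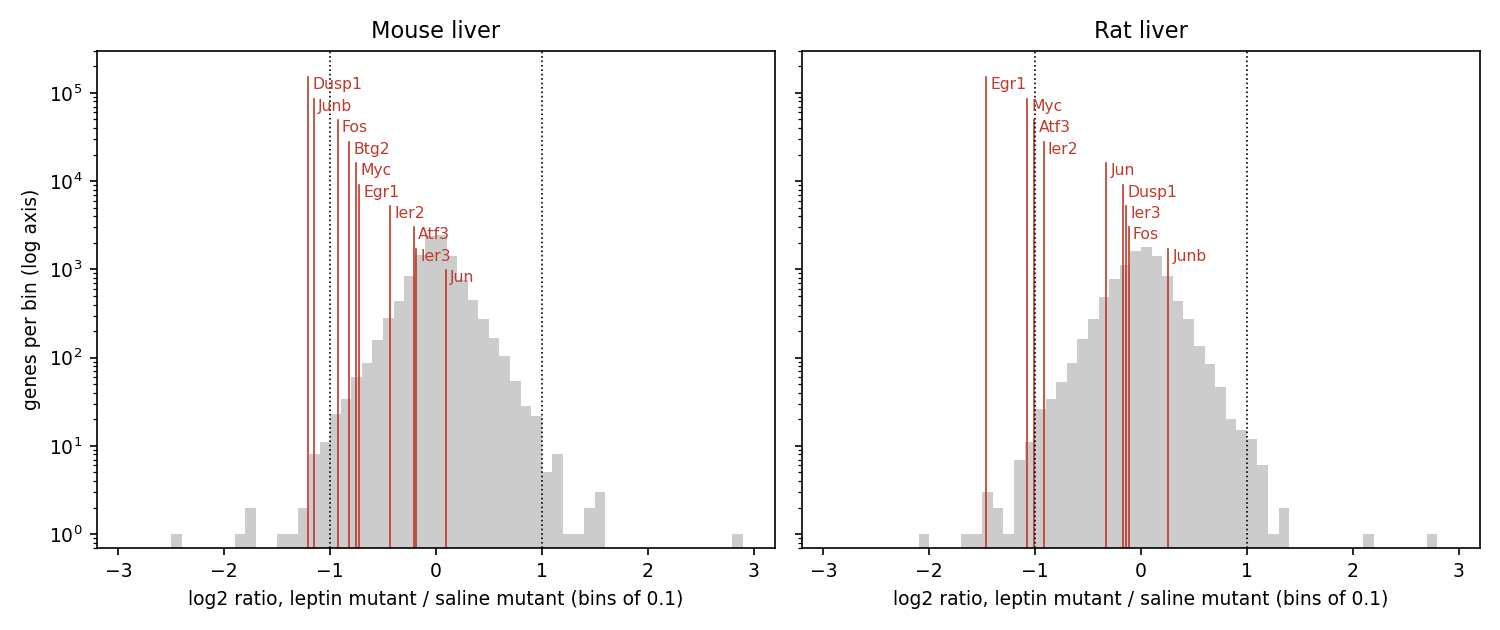
Number of genes (vertical, log axis) by log2 ratio of leptin-injected over saline-injected mutant liver (horizontal, bins of 0.1), with the 10 mouse and 9 rat genes as red lines, whose height only separates the names; dotted lines mark 2-fold. Dusp1 and Junb lie past 2-fold in mice, and Egr1, Myc and Atf3 in rats.

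The members differed in how their 3 arrays were ordered. For Egr1, the mouse signal was 814 in leptin-injected mutant, 1348 in saline-injected mutant and 4023 in WT liver. The rat signal was 1708 in leptin-injected mutant, 4702 in saline-injected mutant and 1996 in WT liver. The saline mutant array was thus 2.98-fold lower than WT in mice and 2.36-fold higher than WT in rats, while leptin-injected liver had less Egr1 than saline-injected liver in both species. Against WT, leptin-injected mutant liver was 4.94-fold lower in mice and 1.17-fold lower in rats.

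Fos forms the AP-1 dimer with JUN proteins. Its mouse signal was 306 in leptin-injected mutant, 584 in saline-injected mutant and 298 in WT liver. Leptin-injected mutant and WT liver thus differed by 1.03-fold, and the saline-injected mutant array stood above both, 1.96-fold over WT. In rats the brighter Fos probe set had signals of 233 in leptin-injected mutant, 253 in saline-injected mutant and 202 in WT liver, and its 3 arrays lay within 1.25-fold. A second rat probe set was under the floor on all 3 arrays, at 8.6, 57.3 and 37.5 in the same order of groups.

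Junb, an AP-1 subunit that activates transcription more weakly than JUN, had mouse signals of 104 in leptin-injected mutant, 232 in saline-injected mutant and 326 in WT liver. The leptin-injected array was close to the floor and 3.13-fold lower than WT. In rats Junb had signals of 373 in leptin-injected mutant, 312 in saline-injected mutant and 237 in WT liver, the opposite order. Jun itself, the AP-1 subunit that JNK phosphorylates, was within 1.16-fold over the 3 mouse arrays. Its brightest probe set had signals of 1075 in leptin-injected mutant, 1007 in saline-injected mutant and 924 in WT liver, and the other 646, 685 and 648. In rats the brightest Jun probe set had 1995 in leptin-injected mutant, 2500.1 in saline-injected mutant and 1907 in WT liver. A second rat Jun probe set, with 1214, 1492 and 634 in the same groups, was 2.35-fold higher in saline-injected mutant than in WT liver, where the brightest was 1.31-fold and the remaining probe set 1.15-fold higher.

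Myc had the same order of arrays in both species. Mouse signals were 160 in leptin-injected mutant, 269 in saline-injected mutant and 107 in WT liver, and rat signals 626 in leptin-injected mutant, 1323 in saline-injected mutant and 395 in WT liver. The saline mutant array was 2.52-fold higher than WT in mice and 3.35-fold higher in rats, and the leptin-injected array lay between the other 2, with a log2 ratio over WT of 0.58 in mice and 0.66 in rats. Atf3 was likewise in the middle after leptin. Its rat signals were 313 in leptin-injected mutant, 629 in saline-injected mutant and 158 in WT liver. Its mouse signals were 159 in leptin-injected mutant, 183 in saline-injected mutant and 81.2 in WT liver, the last under the floor. Atf3 was thus 3.996-fold higher in saline-injected mutant than in WT rats and at least 2.22-fold higher in mice; with the floor at the 75th percentile, to which the other 2 rat arrays were raised, the rat log2 ratio was 0.48. In rats, leptin-injected mutant liver was 1.99-fold above WT for Atf3.

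Dusp1 had mouse signals of 1478 in leptin-injected mutant, 3419 in saline-injected mutant and 2811 in WT liver. Leptin-injected liver was thus the lowest, 1.90-fold under WT, and the saline-injected arrays of the 2 genotypes differed by 1.22-fold. The rat probe sets of Dusp1 disagreed. The brighter one had 10680 in leptin-injected mutant, 12020 in saline-injected mutant and 14372 in WT liver, a genotype difference of 1.20-fold. The other had 542 in leptin-injected mutant, 527 in saline-injected mutant and 2518 in WT liver, so that saline-injected mutant liver was 4.78-fold lower than WT. The log2 ratios of leptin-injected over saline-injected mutant liver were -0.17 and 0.04.

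Btg2, an antiproliferative protein that p53 induces and that recruits the mRNA deadenylation complex, was measured in mice only. Its brighter probe set had signals of 743 in leptin-injected mutant, 1310.0 in saline-injected mutant and 574 in WT liver, and the other 570 in leptin-injected mutant, 558 in saline-injected mutant and 396 in WT liver. The genotype difference had the same direction on both, 2.28-fold and 1.41-fold higher in saline-injected mutant liver. The leptin difference was not the same on both, with log2 ratios of -0.82 on the brighter and 0.03 on the other.

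Ier2, a nuclear protein of the early growth response, had mouse signals of 630 in leptin-injected mutant, 849 in saline-injected mutant and 1494 in WT liver. Leptin-injected mutant liver was 2.37-fold lower than WT, the difference from WT being 1.76-fold in saline-injected mutant liver. Rat signals were 714 in leptin-injected mutant, 1351 in saline-injected mutant and 1080 in WT liver. Leptin-injected liver was again the lowest of the 3, but saline-injected mutant liver was 1.25-fold above WT. Ier3, a regulator of survival that NF-kB induces, was within 1.1-fold over the 3 rat arrays, with signals of 1876 in leptin-injected mutant, 2064 in saline-injected mutant and 1898 in WT liver. In mice it had 142 in leptin-injected mutant and 162 in saline-injected mutant liver, against 73.7, under the floor, in WT liver, at least 1.96-fold higher in saline-injected mutant liver.

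Set against WT, saline-injected Lepob/Lepob liver had more Myc, Btg2 and Atf3 and less Egr1. These 3 of 10 genes higher compare with 4.46% of the 11956 genes measured, and the 1 of 10 lower with 3.71%. Fos lay just under 2-fold and Ier3 had a bound of 1.96-fold; with quantile normalization or equal medians both passed 2-fold, making 5 of 10 higher, and with the floor at the 25th percentile Ier3 did, making 4. The median log2 ratio was 0.63 for the 10 genes and -0.03 for all genes. Saline-injected Lepmkyo/Lepmkyo liver had more Atf3, Myc and Egr1 than WT rat liver. These 3 of 9 compare with 2.99% of 9817 genes, and 0 of 9 were lower, against 1.45%; with the median over probe sets Dusp1 was lower. The median was 0.39, beside 0.04 for all genes. Of the 9 genes in both species, 5 were above 0 in both, 0 below 0 in both, and Egr1, Junb, Dusp1 and Ier2 had opposite signs; over 8303 genes, 57.9% had the same sign. Myc and Atf3, 2 of the 9, were 2-fold higher in the mutant of both species, against 0.735% of the 8303 genes (61 genes). Both mouse calls depended on the treatment of dim signals. They were lost when the platform median was added to each signal, at log2 ratios of 0.89 for Myc and 0.70 for Atf3. Neither gene had a mouse value with the highest floor tried, and Myc had none without probe sets shared by several transcripts.

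The saline mutant array is in both the genotype and the leptin ratios, on top in the first and below in the second, so these ratios are not independent. The comparison of leptin-injected mutant with WT liver does not use it, but shares the WT array with the first and the leptin array with the second. Against WT mice, leptin-injected Lepob/Lepob liver had 3 of 10 genes 2-fold lower (Egr1, Junb and Ier2), against 3.46% of 11958 genes, and 0 of 10 higher, against 3.98%. Against WT rats, leptin-injected Lepmkyo/Lepmkyo liver had 0 of 9 genes 2-fold lower, against 1.61% of 9742 genes, and 0 of 9 higher, against 2.83%. The medians were 0.13 in mice and 0.06 in rats, beside -0.02 and 0.06 for all genes. Their direction was not stable: with the floor at the 75th percentile they were -0.93 in mice and -0.12 in rats, and without probe sets shared by several transcripts -0.44 and -0.02. Atf3 in rats, 1.99-fold higher, passed 2-fold with quantile normalization and with equal medians.

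**Figure D3:**
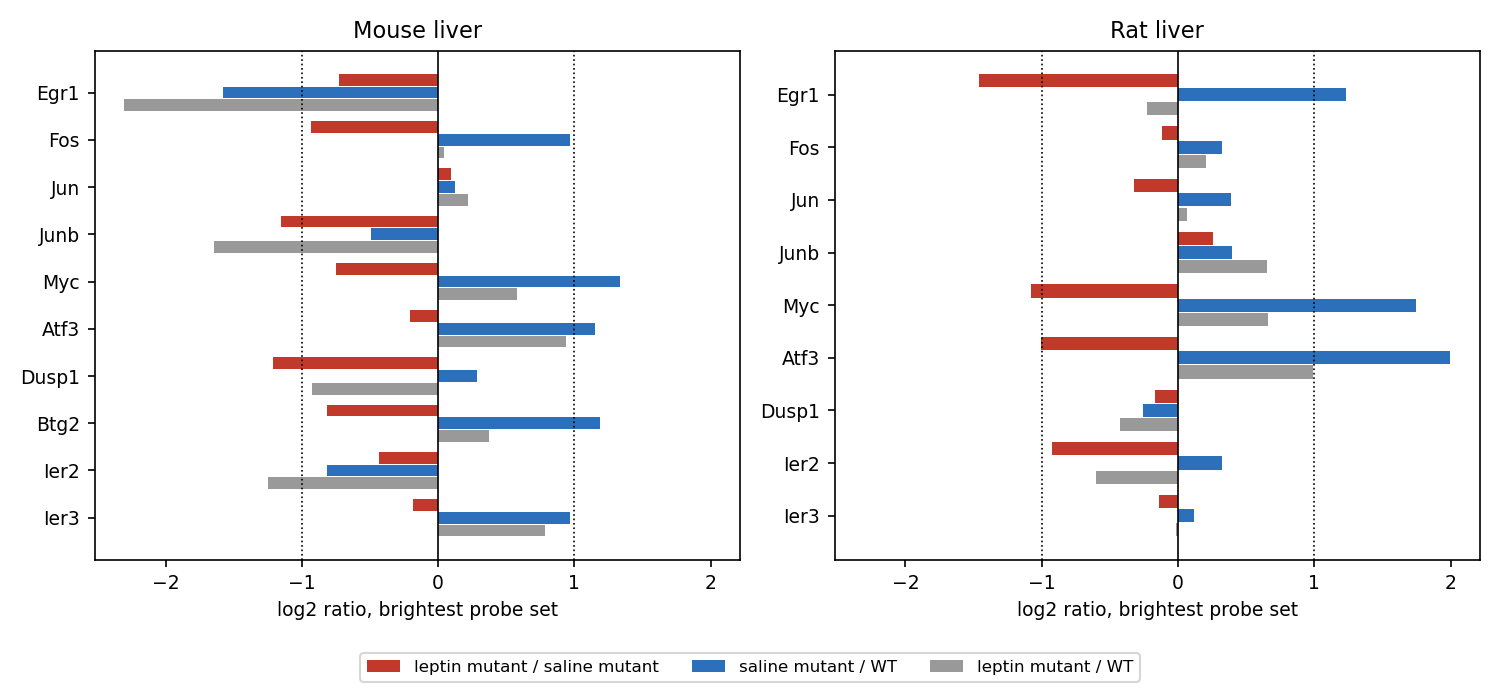
Log2 ratio of the brightest probe set of each gene (horizontal) in 3 comparisons per species: leptin-injected over saline-injected mutant (red), saline-injected mutant over WT (blue) and leptin-injected mutant over WT (grey); dotted lines mark 2-fold, and the mouse blue and grey bars of Atf3 and Ier3 are lower bounds. The red bar of Egr1 points left in both species, at -0.73 in mice and -1.46 in rats, while its blue bar is at -1.58 in mice and 1.24 in rats.

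The wider set of immediate early genes had leptin medians closer to those of all genes. Of 46 further immediate early genes, 40 were measured in the mouse leptin comparison. Of the 40, 0 were at least 2-fold higher, against 0.182% of all genes, and 2 lower (Phlda1 and Id1), against 0.243%. Phlda1, a pleckstrin homology protein, had 1901 in leptin-injected and 4790 in saline-injected liver. Id1, an inhibitor of helix-loop-helix factors and a BMP target, had 643 in leptin-injected and 1296 in saline-injected liver. In rats 35 were measured, with 0 at 2-fold in either direction, against 0.237% of all genes higher and 0.278% lower. The median log2 ratio was -0.06 in both species, beside -0.002 for all genes in mice and 0.01 in rats. In the genotype comparison, 8 of 41 were higher and 1 lower in mice, beside 4.46% and 3.71% of all genes, and 4 of 36 higher and 1 lower in rats, beside 2.99% and 1.45%. The list held Jund, which is also present in resting cells, and Jund was 1 of the 4 higher in rats. Klf6, a zinc finger factor induced by injury, had 539 in saline-injected mutant and 164 in WT mice, and 1001 in saline-injected mutant and 330 in WT rats. Ccn2, a matrix-associated growth factor, had 2219 in saline-injected mutant and 469 in WT rats, 4.73-fold higher, and Rhob, a small GTPase, was 3.67-fold higher. Cebpd, an acute phase transcription factor, was 2.89-fold higher in the saline-injected mutant than in WT mice.

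Relatives of the 10 genes were taken by family, the 10 included where they belong. Their counts stand beside these shares of all genes past 2-fold. After leptin, 0.182% were higher and 0.243% lower in mice, and 0.237% and 0.278% in rats. Between saline-injected mutant and WT liver, 4.46% were higher and 3.71% lower in mice, and 2.99% and 1.45% in rats. Between leptin-injected mutant and WT mice, 3.46% were lower. Of 22 measured FOS, JUN, ATF and related factors in mice, 0 were 2-fold higher and 1 lower after leptin (Junb), with a median of 0.09, and of 18 in rats 0 were higher and 1 lower (Atf3), with a median of -0.07. In the genotype comparison of this family, 3 of 22 were higher and 1 lower in mice, the last being Crem, a cAMP-responsive factor, at 640 in saline-injected mutant and 1845 in WT liver. In rats 2 of 18 were higher, Atf3 and Jund. Jund, an AP-1 subunit present in resting cells, was at 4805 in saline-injected mutant and 1805 in WT liver. Of the dual specificity phosphatases, Dusp1 was the 1 of 14 that passed 2-fold after leptin in mice, and 0 of 12 did in rats, with medians of -0.06 and -0.12. Dusp6, the ERK-selective phosphatase, was 2.35-fold higher in saline-injected mutant than in WT mice, the 1 of 16 past 2-fold, and in rats it was Dusp22, at 2.13-fold, of 13. Egr1 was measured with few relatives: Nab2, a corepressor that binds EGR1, was at 111 in leptin-injected mutant and 360 in WT mice, 3.25-fold lower, with 2 of 3 of that family 2-fold lower. In the rat leptin comparison 1 of 4 was lower (Egr1) and in the mouse 0 of 3. The BTG and TOB family had 0 of 6 at 2-fold after leptin in either species, and Btg2 alone, of 6, was higher in saline-injected mutant than in WT mice. Among MYC and its partners, Myc was the 1 of 11 that was higher in saline-injected mutant than in WT mice, and 0 of 11 passed 2-fold after leptin in mice. In rats 2 of 10 were lower: Myc and its paralogue Mycl, which had 233 in leptin-injected mutant and 485 in saline-injected mutant liver, against 239 in WT liver.

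**Figure D4:**
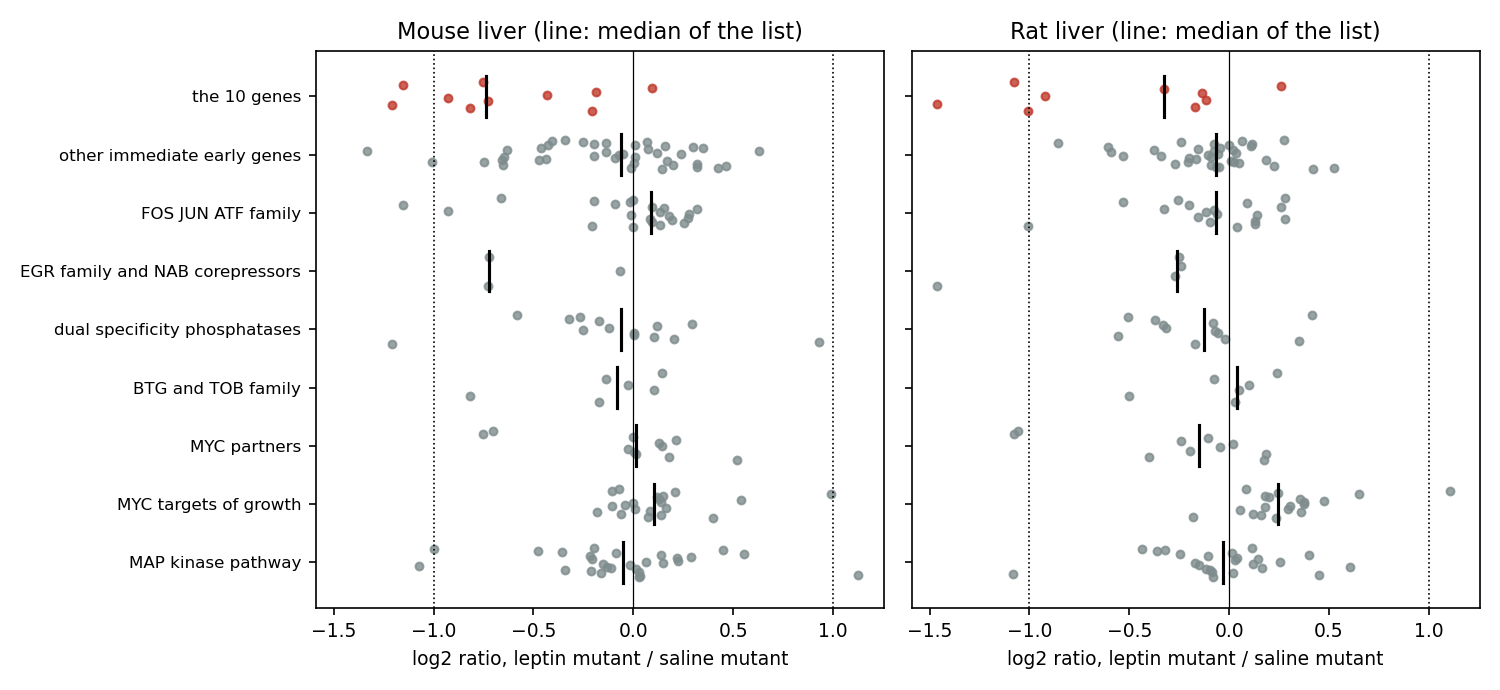
Log2 ratio of leptin-injected over saline-injected mutant liver (horizontal) for each gene of 9 lists (rows), 1 point per measured gene, spread vertically for sight only, with a black line at the median of each list and dotted lines at 2-fold; families include those of the 10 genes that belong to them. The 10 genes have medians of -0.74 in mice and -0.33 in rats, and the other immediate early genes -0.06 in both.

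Genes with the most similar profile were sought by the Euclidean distance over 4 log2 ratios (genotype and leptin in mice and rats) among 8066 genes measured in all 4, for Egr1, Atf3 and Myc, which had the largest ratios of the genes measured in both species. Nearest to Egr1 was Cish, a cytokine-induced inhibitor of STAT5 signalling, at a distance of 0.88, with leptin ratios of -0.53 in mice and -2.06 in rats and genotype ratios of -1.29 in mice and 0.69 in rats. Asap2 and Dipk1a followed at 1.08 and 1.09. Nearest to Myc was Fkbp5, a glucocorticoid-induced cochaperone, at 0.47, with leptin ratios of -0.37 in mice and -0.90 in rats and genotype ratios of 1.32 in mice and 1.53 in rats, followed by Tnfrsf12a, the receptor of TWEAK, at 0.50 and periplakin (Ppl) at 0.60. Nearest to Atf3 were Ppl at 0.43, the chemokine Ccl2 at 0.46 and Fkbp5 at 0.54. An array was under the floor in 1 of the 4 ratios of Ppl, in 2 of those of Ccl2 and in the mouse genotype ratio of Atf3 itself, so that the distances of Ppl and Ccl2, and all those to Atf3, rest on bounds. Each species contributes 3 arrays to these distances, and the genotype and leptin ratios share 1 of them.

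Markers of other cells moved with some of these values, and their part in them was not tested. Neutrophil markers, 5 of 6 on the mouse array, summed to a signal of 1880.0 in leptin-injected mutant, 782 in saline-injected mutant and 463 in WT mice. Of the 5 measured, 3 were 2-fold higher after leptin, against 0.182% of all genes. In rats 4 of 6 were on the array, with sums of 472, 352 and 218 in the same order, and Csf3r and Camp were under the floor on all 3. The highest neutrophil sum was thus that of the leptin-injected array in both species. Stellate cell markers, 6 of 6, summed to 19942 in leptin-injected mutant, 19656 in saline-injected mutant and 12028 in WT mice, and to 9127, 8977 and 3150 in rats. Both mutant arrays were above WT in each species, as they were for endothelial markers. Endothelial markers summed to 8154, 8477 and 5925 in mice (5 of 5) and to 7733, 6833 and 5476 in rats (4 of 5). Kupffer cell and macrophage markers summed to 7515, 8694 and 7650 in mice (6 of 6) and to 5196, 4614 and 4306 in rats (4 of 6). The Kupffer cell sums had no common order in the 2 species. Hepatocyte markers summed to 140602, 139948 and 182673 in mice and to 122377, 113120 and 125438 in rats. Bile duct and red blood cell sums were higher in both rat mutant arrays than in WT rats and lower in both mouse mutant arrays than in WT mice. The red blood cell sums rested mainly on Alas2 in mice, at 1142 in saline-injected mutant and 2771 in WT liver. In rats they rested mainly on Hbb, at 18750 in saline-injected mutant and 8301 in WT liver. Their directions in the 2 species are thus not of the same gene. Sums of bile duct markers were 296, 268 and 528 in mice and 966, 934 and 491 in rats (4 of 5 each), with Krt7 under the floor on all arrays. Lymphocyte markers summed to 194, 202 and 222 in mice (5 of 6, with Cd3e, Cd3g, Cd79a and Nkg7 under the floor on all) and to 309, 294 and 208 in rats (4 of 6, with Cd3e and Cd79b under it). Red blood cell markers, 2 of 4 on each array, summed to 1114, 1192 and 2786 in mice, with Hba-a1 under the floor on all 3, and to 20055, 19079 and 8483 in rats.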

How the data were processed

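Per the labels' protocols, liver RNA was isolated with Trizol; 1 Affymetrix array was made for each of 6 groups. The deposited values are linear signal intensities per probe set. The submitters' processing notes name MAS5, without a version, as the method. Trimmed means, which MAS5 equalises, were computed without 2% of the values at each end. Dim MAS5 signals are noisy, and detection calls were not used here.

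Probe sets with exactly 1 symbol were used, 34945 in mice and 20826 in rats; 932 and 436 had several and 9160 and 9780 none. Mouse symbols were updated through gene identifiers to GRCm38.p6 for 34741 probe sets; rat symbols stayed as annotated. A gene took its brightest probe set by mean signal and counted as measured where either array of a pair was at or above the floor. Ratios, counts at 2-fold and list medians were computed in Python 3.11.15 with pandas 2.3.3. On simulated data, the ratio step was checked for recovery of known fold changes in bright genes only. List medians and fold changes near the floor were not simulated. Each group being 1 array, no test was possible. The 10 genes, the lists and the motifs were chosen with earlier results of these data known. Named genes were the 10, up to 3 of each list past 2-fold per comparison, and the 3 nearest profiles to each of 3 genes.
Alternatives were quantile normalization, equal medians, the platform median added to each signal, the median over probe sets, a floor at the 75th or the 25th percentile, and dropping probe sets shared by several transcripts.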

Additional observations from a re-analysis of the deposited data

Results flagged for a closer look

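Egr1 went opposite ways in the genotype comparison of the 2 species, with a log2 ratio of -1.58 in saline-injected Lepob/Lepob over WT mice and 1.24 in saline-injected Lepmkyo/Lepmkyo over WT rats. Both values rest on 1 probe set and 2 arrays.

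Junb went opposite ways after leptin, at -1.16 in mice and 0.26 in rats, and between leptin-injected mutant and WT liver, at -1.65 in mice and 0.65 in rats. These values share the leptin-injected array of each species. With 1 array per group, none of these differences between species was tested.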

How the results depend on the processing

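No paired analysis was possible because each group held 1 array, and leaving out replicates was not possible for the same reason. Of 57 ratios of single genes, 15 were past 2-fold and 8 of these stayed past it in every alternative that gave a value. Of the 15, 0 turned sign; of all 57, 2 did, both close to 0 for leptin-injected mutant against WT rats: Jun, 0.06, was -0.02 without probe sets shared by several transcripts, and Ier3, -0.02, was 0.07 with equal medians. Genes 2-fold higher in saline-injected mutant than in WT mice numbered 5 with quantile normalization or equal medians and 1 with the floor at the 75th percentile or the platform median added, in place of 3. After leptin, 1 mouse gene was lower with that floor or with the median added, in place of 2, and 1 rat gene with the platform median added, in place of 3. At 1.5-fold lower after leptin the counts were 4 to 6 in mice and 3 to 4 in rats. For leptin-injected mutant against WT mice, 1 gene was higher with equal medians, in place of 0, and the median of the 10 genes, 0.13, was -0.93 with the floor at the 75th percentile, which left out the dim genes, and -0.44 without probe sets shared by several transcripts, which left out Myc and Ier3. In rats, the median over probe sets gave 1 gene lower than WT, in place of 0, in saline-injected and in leptin-injected mutants, and quantile normalization or equal medians 1 higher in leptin-injected mutants. Over all genes, those 2-fold apart between leptin-injected and saline-injected mutants numbered 9 to 844 in mice, in place of 49, and 13 to 507 in rats, in place of 50, the lowest with the higher floor and the highest with the lower one. The same floors gave 465 and 2325 for the mouse genotype (976), 413 and 2240 for leptin-injected mutant against WT mice (890), 186 and 1147 for the rat genotype (436), and 186 and 1151 for leptin-injected mutant against WT rats (433). Signals near the floor, as for Atf3, Ier3, Junb and Myc in mice, limit what their ratios can show.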

Other observations

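Genes of ribosome synthesis and growth that MYC is known to activate did not have lower signals after leptin in rats, where Myc was 2.11-fold lower. Of 19 measured, 18 had a log2 ratio above 0 and 1 below, with a median of 0.25 beside 0.01 for all genes. At 2-fold, 1 was higher, against 0.237% of all genes, and 0 lower, against 0.278%. The 1 was spermidine synthase (Srm), with a signal of 1425 in leptin-injected and 662 in saline-injected mutant liver. In mice 13 of 20 were above 0 and 7 below, with a median of 0.10 and 0 at 2-fold. Between saline-injected mutant and WT liver the medians were -0.15 in mice and -0.02 in rats. In mice Nop58, a snoRNP core protein, was the 1 of 20 past 2-fold, 2.02-fold lower, against 3.71% of all genes lower.

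The MAP kinase pathway induces many of the 10 genes. Of its 29 measured genes, 1 (Map2k6) was 2-fold higher and 1 (Egfr) lower in saline-injected mutant than in WT mice. Over all genes, 4.46% were higher and 3.71% lower. In rats 1 of 25 was higher (Map2k6) and 0 lower, against 2.99% and 1.45% of all genes. After leptin, 1 of 28 was 2-fold higher in mice, against 0.182% of all genes, and 2 were lower, against 0.243%. The receptor Egfr had 2094 in leptin-injected and 960 in saline-injected mutant liver, against 19015 in WT liver. Lower were Map2k6, a p38 kinase kinase, by at least 2.10-fold and the feedback inhibitor Spry4, at 124 in leptin-injected and 247 in saline-injected liver. In rats 0 of 24 were higher, against 0.237% of all genes, and 1 lower, against 0.278%. The latter was the ternary complex factor Elk1, at 106 in leptin-injected and 224 in saline-injected liver. The medians were -0.05 in mice and -0.03 in rats.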
